A study of Mus musculus with 2 samples.

Results

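The genes described here are 46 genes whose transcription is known to follow stimulation of neurons. They were chosen by symbol from 55536 annotated mouse genes, of which 22028 are protein-coding. These genes and the other gene lists used below were chosen with earlier results of these data known. The tissue was left cerebral cortex, and its total RNA was sequenced for 2 males of the hybrid strain B6CASTF1/J (a cross between the B6 and CAST strains), both aged 36 days, with 1 library per mouse, called replicate 1 and replicate 2. Each library began with 300 ng of RNA, carried ERCC spike-in RNAs (synthetic transcripts added as a common yardstick) and was reduced in ribosomal RNA, per the labels. The labels number the mice as separate biological replicates, yet give both the same donor identifier. There is 1 group, no treatment and no stimulated arm, so the data hold the level of each gene without a labelled stimulus and the ratio between 2 mice kept as 1 group, and no p-value was computed.

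Calcium entry through synaptic receptors and voltage-gated channels activates kinases, which phosphorylate transcription factors already bound to DNA, among them CREB at cyclic AMP response elements and SRF with its partners at CArG boxes. Rapid primary genes such as Fos, Egr1 and Arc are transcribed at once from promoters that hold a poised polymerase, delayed primary genes follow without needing new protein, and secondary genes need the transcription factors made in the first wave. Many of their RNAs are short-lived, so in cortex their steady level follows the animal's recent experience and handling.

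Of the 46 genes, 24 were treated as rapid primary, 17 as delayed primary and 4 as secondary. Jund, a Jun family member known for a steady level, was kept apart as constitutive. The classes were assigned from general knowledge of the genes, and 5 rapid, 7 delayed and 1 secondary assignments are borderline because studies place these genes differently.

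Promoters are shown first, because the known route to these genes runs through short motifs near their start sites. RefSeq windows on GRCm38.p6 were at hand for 35 of the 46 genes, and the 250 bases before each start were searched on both strands for a CArG box, for the full cyclic AMP response element TGACGTCA, and for its shorter core TGACG, which reads CGTCA on the other strand. Every full element also contains the core. The windows below belong to the 4 genes with the highest ratios between the mice that hold a CArG box or a full element. Capitals mark the motif and distances count from the start site.
Egr2, chr10:67537454-67537543, plus strand, intronic in the longer gene models, CArG box from -72: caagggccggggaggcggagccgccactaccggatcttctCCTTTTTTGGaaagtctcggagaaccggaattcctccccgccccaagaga
Dusp5, chr19:53529023-53529122, plus strand, around the annotated gene start and inside an antisense exon, CArG boxes from -82 and -72: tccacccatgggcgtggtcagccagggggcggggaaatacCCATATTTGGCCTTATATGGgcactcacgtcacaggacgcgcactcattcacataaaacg
Dusp1, chr17:26508568-26508655, minus strand, intronic in the longest gene model, full element from -143: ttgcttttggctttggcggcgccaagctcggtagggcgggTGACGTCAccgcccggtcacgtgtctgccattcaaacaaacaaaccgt
Maff, chr15:79347463-79347519, plus strand, intronic in the longest gene model, full element from -29: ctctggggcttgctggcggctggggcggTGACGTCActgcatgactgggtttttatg

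CArG boxes stood in the windows of 3 of the 35 genes (8.57%), Egr2, Dusp5 and Zfp36, and in 1.62% of the 27025 genes of the table. Full elements stood in 5 (14.3%), Btg2, Dusp1, Maff, Plk2 and Scg2, and in 1.77% of all genes. The core TGACG stood in 22 (62.9%), against 19.8% of all genes, and was found for 15 of 20 rapid primary genes, 6 of 12 delayed primary genes and 1 of 2 secondary genes. Counted per window of this length, 62.2% of the 45 windows of these genes and 17.8% of all 32851 windows held the core. The genes of the table were not limited to protein-coding or detected genes, and base content was not matched. A TATA motif, searched as TATAAA, stood in 6 of the 35 (17.1%), close to the 14.3% of all genes. A gene can have several start sites, so these counts are over genes with at least 1 window that matched. A match is a run of letters and was not tested as a site.

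A further 3 windows were picked after the values were seen, to set genes with different ratios side by side. Fos and Nr4a1, both more than 2-fold higher in replicate 1 (for Nr4a1 not on the spike-in scale, at 0.96), hold the core and neither a CArG box nor a full element in these windows. Plk2, almost level between the mice, holds the full element. Capitals mark TGACG or CGTCA, or the full element in Plk2.
Fos, chr12:85473741-85473848, plus strand, upstream of the gene, cores from -129 and -66: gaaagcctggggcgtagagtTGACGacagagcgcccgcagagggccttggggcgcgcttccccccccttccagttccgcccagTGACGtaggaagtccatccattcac
Nr4a1, chr15:101266603-101266820, plus strand, intronic in the longest gene model, cores from -233, -213, -69 and -40: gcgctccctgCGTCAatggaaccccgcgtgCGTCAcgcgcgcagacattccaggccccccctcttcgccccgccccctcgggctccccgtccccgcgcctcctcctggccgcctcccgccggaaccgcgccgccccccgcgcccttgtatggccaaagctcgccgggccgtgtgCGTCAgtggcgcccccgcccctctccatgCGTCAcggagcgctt
Plk2, chr13:110394942-110395029, plus strand, upstream of the gene, full element from -62: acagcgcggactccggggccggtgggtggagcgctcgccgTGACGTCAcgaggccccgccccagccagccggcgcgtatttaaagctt

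Nearly all of these genes were measurable in this cortex. In TPM (a length-corrected share of each library's transcripts, on a scale with a fixed sum), 43 of 46 reached at least 1 in both mice, against 58.6% of protein-coding genes. The exceptions were Maff, Amigo3 and Atf3. Maff, a small partner of bZIP factors, had 1.83 TPM in replicate 1 and 0.89 TPM in replicate 2. Amigo3, a neuronal adhesion protein, had 1.08 TPM in replicate 1 and 0.78 TPM in replicate 2. Atf3, a stress-linked bZIP factor, had 0.79 TPM in replicate 1 and 0.30 TPM in replicate 2. The median level of the 46 genes was 11.9 TPM in replicate 1 and 8.65 TPM in replicate 2. Among protein-coding genes detected in both mice they ranked low to middle, with a median percentile of 35.6. The 4 secondary genes had the highest median, 69.8 TPM in replicate 1 and 71.4 TPM in replicate 2, though Inhba among them was scarce. Of the other genes, Plk2, Egr1, Egr3 and Jund exceeded Nptx2 in both mice, and Arc, Nr4a1 and Bhlhe40 did so in replicate 1 only. Rapid primary genes had medians of 10.8 TPM in replicate 1 and 6.88 TPM in replicate 2, and delayed primary genes 10.4 TPM in replicate 1 and 7.02 TPM in replicate 2.

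**Figure D1:**
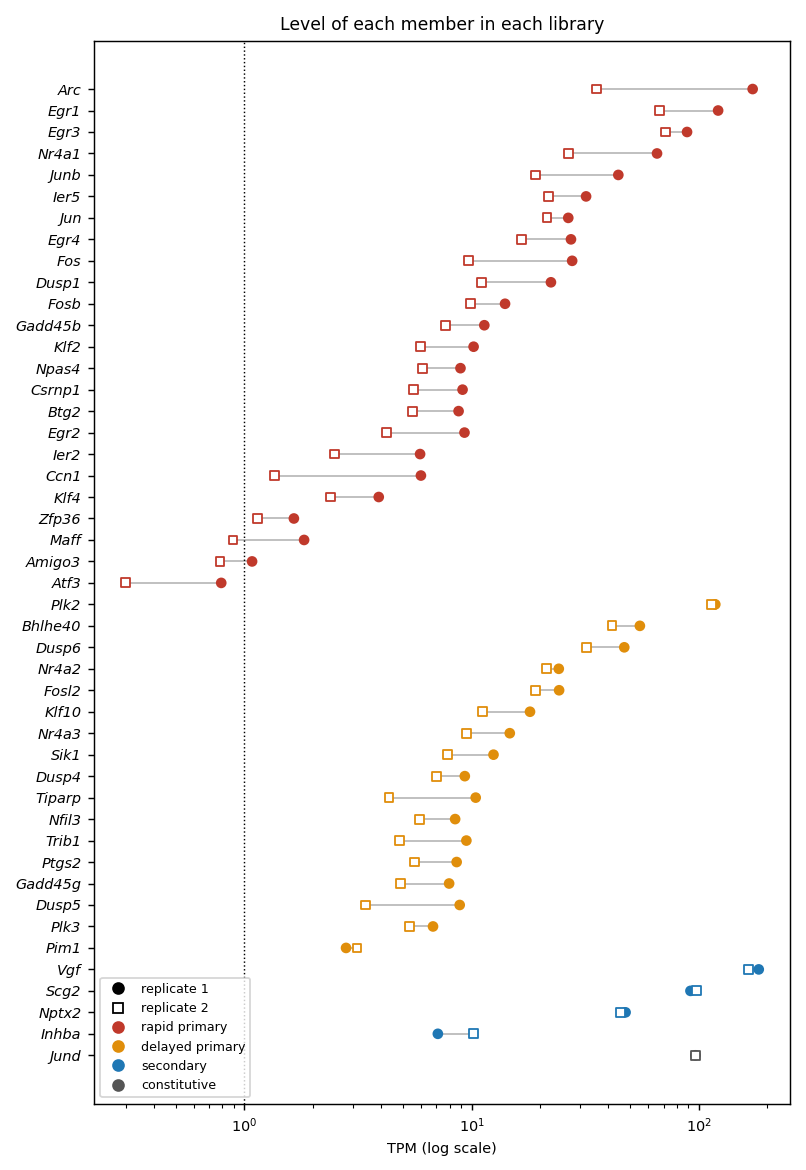
Deposited TPM of each of the 46 genes on a log scale, with filled circles for replicate 1 and open squares for replicate 2, sorted by mean level within kinetic class. The dotted line marks 1 TPM, the line between the symbols joins the 2 mice, and replicate 1 lies under replicate 2 for Jund (96.6 and 96.8 TPM). Every rapid primary gene lies further right in replicate 1, while Vgf, Scg2, Nptx2 and Plk2 have nearly touching symbols.

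The levels also differed between the mice, and mostly in 1 direction. Summed over the 46 genes, TPM was 1535 in replicate 1 and 1070.0 in replicate 2, and the genes took 0.263% of all expected counts (estimated reads per gene) in replicate 1 and 0.179% in replicate 2. Ratios were then taken as log2 of replicate 1 over replicate 2 after TMM scaling (a trimmed-mean correction of library size), for genes with a mean expected count of at least 100, a bar that 42 of the 46 passed. Of the 42, 11 were more than 2-fold higher in replicate 1, against 22 (0.188%) of 11728 protein-coding genes, so that 11 of those 22 genes come from this list. Scaled to spike-in totals, 5 of the 42 and 8 (0.0682%) of all genes were. None of the 42 was more than 2-fold higher in replicate 2, where 0.0597% of all genes were (7 genes, and 59 with spike-in scaling). The log2 ratio exceeded 0.5 for 29 of the 42 and for 1.07% of all genes. The median ratio of the 42 was 0.68, with a range of -0.32 to 2.34, beside 0.03 for all protein-coding genes, and with spike-in scaling it was 0.28, beside -0.37. Of the 50 protein-coding genes with the highest ratios, 18 were among the 46. Because the list was chosen with earlier results of these data known, these overlaps describe it and are not independent support.

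The exact 95% counting interval of the ratio, which covers counting error only and not variation between animals, lay above 0 for 38 of the 42 and below 0 for Inhba alone. Over all genes it lay above 0 for 23.8% and below 0 for 14.0%, so a ratio beyond counting error was common among all genes, while a ratio over 1 was rare. The central 95% of all ratios ran from -0.41 to 0.36. Ccn1, Ier2 and Gadd45g passed the count bar with under 100 counts in replicate 2, and the median over all 46 genes, with no bar, was also 0.68. Zfp36, Maff, Amigo3 and Atf3 did not pass it. In bulk tissue, fewer cells of a type and less RNA per cell cannot be told apart.

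**Figure D2:**
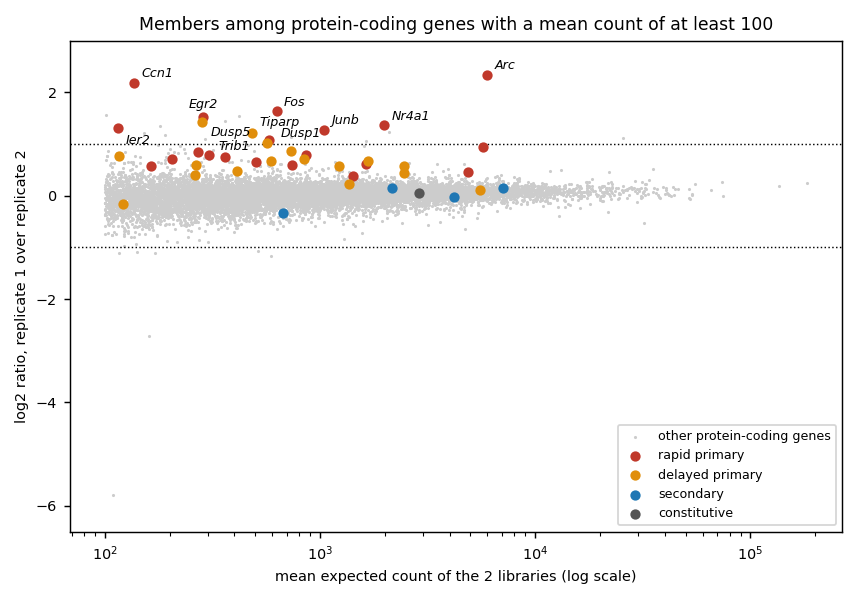
Log2 ratio of replicate 1 over replicate 2 against the mean expected count of both libraries (log scale) for 11728 protein-coding genes, with the 42 genes of the list that passed the count bar in colour by kinetic class. Dotted lines mark 2-fold differences. The 11 named genes lie above the upper line at counts from about the bar up to that of Arc.

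The ratios were ordered by kinetic class. Rapid primary genes had a median log2 ratio of 0.82 (20 genes past the bar, 0.38 to 2.34), delayed primary genes 0.59 (17 genes, -0.15 to 1.44) and secondary genes 0.06 (4 genes, -0.32 to 0.16). Of the genes more than 2-fold higher in replicate 1, 8 were rapid and 3 delayed, and 0 of the 4 secondary genes were. The counting interval lay above 0 for 20 of 20 rapid, 16 of 17 delayed and 2 of 4 secondary genes. The rapid and delayed ranges overlapped widely, while the secondary range lay below every rapid primary ratio. With borderline assignments left out, the medians were 1.07 for rapid, 0.59 for delayed and 0.14 for secondary genes. Scaled to spike-in totals, the median of all genes lay 0.40 lower and the medians were 0.42 for rapid, 0.19 for delayed and -0.34 for secondary genes. On that scale 33 of the 42 ratios lay above 0, against 39 after TMM scaling.

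**Figure D3:**
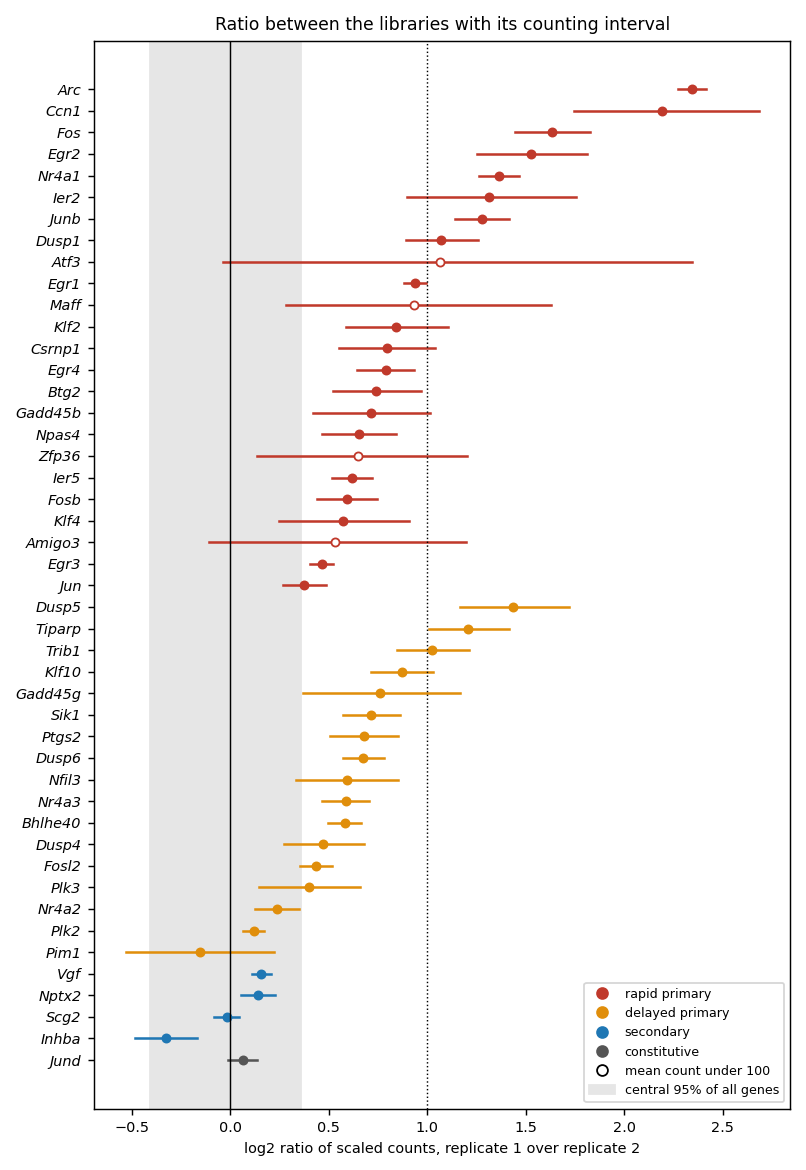
Log2 ratio of TMM-scaled counts, replicate 1 over replicate 2, for each of the 46 genes with its exact 95% counting interval, grouped by kinetic class. The grey band holds the central 95% of all protein-coding genes, -0.41 to 0.36, the dotted line marks a 2-fold difference, and open circles mark genes with a mean count under 100. All rapid primary points lie right of the band, and all secondary points lie inside it.

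Among synaptic effectors, Arc stood furthest apart. Arc is a capsid-like postsynaptic protein that drives internalisation of AMPA receptors, and its RNA travels to active dendrites. It had 172.6 TPM in replicate 1 and 35.6 TPM in replicate 2, from expected counts of 10044 and 1932 in that order. Its log2 ratio of 2.34 (counting interval 2.27 to 2.41), or 5.07-fold, was the highest of all 11728 genes, and on the spike-in scale it was 1.94. Arc was the most abundant rapid primary gene in replicate 1, and in replicate 2 it lay below Egr3 and Egr1. Nptx2, a secreted pentraxin that clusters AMPA receptors, had 47.6 TPM in replicate 1 and 45.2 TPM in replicate 2. Its ratio of 0.14 (0.05 to 0.23) lay inside the central 95% of all genes, and it was -0.26 on the spike-in scale.

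The Fos family supplies one side of the AP-1 dimer. Fos had 27.7 TPM in replicate 1 and 9.66 TPM in replicate 2, a log2 ratio of 1.63 (1.44 to 1.82) on 956 and 301 counts. Fosb, whose truncated product is known to accumulate with repeated stimulation, had 14.0 TPM in replicate 1 and 9.92 TPM in replicate 2, with a ratio of 0.59 (0.44 to 0.75). Fosl2, a later member, had 24.3 TPM in replicate 1 and 19.1 TPM in replicate 2, with a ratio of 0.44, or 0.04 on the spike-in scale. The family was thus higher in replicate 1 as a whole, at 66.0 TPM against 38.7 TPM in replicate 2, and its makeup differed. In replicate 1 Fos led the family at 42.0%, followed by Fosl2 at 36.8% and Fosb at 21.3%, whereas in replicate 2 Fosl2 led at 49.4%, with Fosb and Fos close together (Fosb 9.92 and Fos 9.66 TPM, but Fosb 15.5 and Fos 16.7 TPM when quantified from the reads).

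The Jun family, the other side of the dimer, was led by Jund in both mice. Jund had 96.6 TPM in replicate 1 and 96.8 TPM in replicate 2, a log2 ratio of 0.06 whose interval spans 0 (-0.01 to 0.14), and -0.34 on the spike-in scale. Junb, at 44.2 TPM in replicate 1 and 19.1 TPM in replicate 2, had a ratio of 1.28 (1.14 to 1.42). Jun itself had 26.6 TPM in replicate 1 and 21.5 TPM in replicate 2, and its ratio of 0.38 (0.27 to 0.48), -0.02 on the spike-in scale, was the lowest of the rapid primary genes. Junb therefore made up 26.4% of Jun family TPM in replicate 1 and 13.9% in replicate 2. Junb exons overlap those of Prdx2 on the opposite strand, which held 2950 counts in replicate 1 and 2675 in replicate 2. Whether counting used strand is not stated. All Junb counts were assigned to the single-exon model Junb-201 and 0 to Junb-202. Which of these models overlaps Prdx2 was not examined, so any part of Prdx2 reads in the Junb counts is not known.

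The EGR zinc finger factors bind GC-rich sites in the promoters of synaptic genes. Egr1, the most abundant, had 121.6 TPM in replicate 1 and 67.1 TPM in replicate 2, with a log2 ratio of 0.94 (0.88 to 0.99) on 7537 and 3845 counts. Egr2, the scarcest at 9.30 TPM in replicate 1 and 4.23 TPM in replicate 2, had the highest ratio of the 4, 1.52 (1.25 to 1.81). Egr3 had 88.8 TPM in replicate 1 and 71.6 TPM in replicate 2, with a ratio of 0.46 (0.41 to 0.52), or 0.06 on the spike-in scale. Egr4 lay between, with 27.4 TPM in replicate 1, 16.6 TPM in replicate 2 and a ratio of 0.79. As a result Egr1 was the leading Egr transcript in replicate 1 at 49.2% of family TPM, with Egr3 at 35.9%, whereas in replicate 2 Egr3 led at 44.9% over Egr1 at 42.1%.

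The Nr4a orphan nuclear receptors act without a known activating ligand. Nr4a1 had 65.5 TPM in replicate 1 and 26.7 TPM in replicate 2, a log2 ratio of 1.36 (1.26 to 1.46) on 2877 and 1093 counts. Nr4a2 had 24.2 TPM in replicate 1 and 21.3 TPM in replicate 2, with a ratio of 0.24 (0.13 to 0.35), within the central 95% of all genes and -0.16 on the spike-in scale. Nr4a3 lay between, at 14.7 TPM in replicate 1 and 9.48 TPM in replicate 2, with a ratio of 0.58. In every scaling tried the order of the ratios within the family was that of the kinetic classes, rapid Nr4a1 over delayed Nr4a3 and Nr4a2, since scaling moves all 3 alike.

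**Figure D4:**
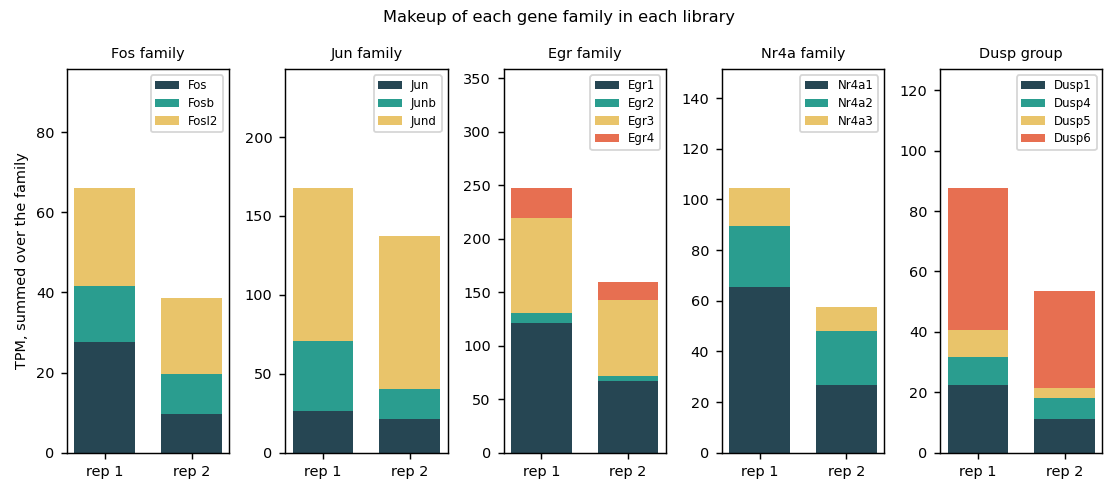
TPM of each member stacked within the Fos, Jun, Egr, Nr4a and Dusp groups, with replicate 1 on the left and replicate 2 on the right of each panel. Each panel has its own axis, starting at 0. The lowest block (Fos, Jun, Egr1, Nr4a1, Dusp1) takes a larger share in replicate 1 in every panel, though for Jun the shares are 15.9% and 15.6%.

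Other nuclear regulators were higher in replicate 1 without reaching Arc's ratio. Ier2, a small nuclear protein, had 5.93 TPM in replicate 1 and 2.48 TPM in replicate 2, with a log2 ratio of 1.31 (0.90 to 1.75) on 166 and 65 counts. Npas4, a bHLH-PAS factor known for its selectivity for calcium signals in neurons, had 8.93 TPM in replicate 1 and 6.07 TPM in replicate 2, with a ratio of 0.65 (0.47 to 0.84). Ier5 had 31.9 TPM in replicate 1 and 21.7 TPM in replicate 2, with a ratio of 0.62. Npas4, known for its restriction to neurons, thus lay near the median of the list. The Kruppel-like factors had ratios of 0.87 for Klf10 (18.1 TPM in replicate 1, 11.2 TPM in replicate 2), 0.84 for Klf2 and 0.57 for Klf4. Csrnp1, a nuclear protein with a cysteine- and serine-rich region, had a ratio of 0.79. Bhlhe40, a bHLH repressor of the circadian clock, was the most abundant of this group at 55.0 TPM in replicate 1 and 41.5 TPM in replicate 2, with a ratio of 0.58. Nfil3, a bZIP repressor, had a ratio of 0.59. Maff and Atf3 had ratios of 0.93 (0.28 to 1.63) and 1.07 (-0.04 to 2.35) on mean counts under the bar, and the interval of Atf3 includes 0.

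The dual-specificity phosphatases remove phosphate from MAP kinases and so feed back on the pathway that induces them. Dusp5, which acts on nuclear ERK, had 8.86 TPM in replicate 1 and 3.41 TPM in replicate 2, with a log2 ratio of 1.44 (1.17 to 1.72), the highest of the delayed primary genes. Dusp1 had 22.3 TPM in replicate 1 and 11.0 TPM in replicate 2, with a ratio of 1.07 (0.89 to 1.25). Dusp6, which acts on cytoplasmic ERK, was the most abundant at 47.0 TPM in replicate 1 and 31.9 TPM in replicate 2, with a ratio of 0.68, and Dusp4 had a ratio of 0.47, or 0.07 on the spike-in scale. All 4 intervals lay above 0, and together they summed to 87.5 TPM in replicate 1 and 53.4 TPM in replicate 2. Dusp1 overlaps Ergic1 on the opposite strand, which held 3159 counts in replicate 1 and 2888 in replicate 2. Of the Dusp1 counts, 715.5 in replicate 1 and 332.8 in replicate 2 lay on the model Dusp1-202. Which models overlap Ergic1 was not examined, so any part of Ergic1 reads in the Dusp1 counts is not known, as with Prdx2 for Junb.

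Tiparp led the regulators of RNA decay and growth in ratio. Tiparp, an ADP-ribosyltransferase, had 10.4 TPM in replicate 1 and 4.33 TPM in replicate 2, with a log2 ratio of 1.21 (1.01 to 1.41). Btg2, an antiproliferative protein that promotes removal of poly(A) tails, had 8.76 TPM in replicate 1 and 5.47 TPM in replicate 2, with a ratio of 0.74. The stress-linked Gadd45g and Gadd45b had ratios of 0.76 and 0.71. Zfp36, which binds AU-rich sequences in short-lived RNAs, was scarce at 1.65 TPM in replicate 1 and 1.14 TPM in replicate 2, and its ratio of 0.65 rests on fewer counts than the bar.

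The kinases, the pseudokinase Trib1 and the enzyme Ptgs2 all belong to the delayed class, with log2 ratios from -0.15 to 1.03 after TMM scaling. Trib1, a pseudokinase that recruits a ubiquitin ligase, had 9.48 TPM in replicate 1 and 4.83 TPM in replicate 2, with a log2 ratio of 1.03 (0.85 to 1.21). Its ratio was 0.96 with library totals and 0.63 on the spike-in scale. Sik1, a salt-inducible kinase that restrains CREB coactivators, had a ratio of 0.71. Ptgs2, the inducible cyclooxygenase, had 8.59 TPM in replicate 1 and 5.61 TPM in replicate 2, with a ratio of 0.68. Plk3 had a ratio of 0.40, or 0.00 on the spike-in scale, and its relative Plk2, a kinase of homeostatic synaptic scaling, differed little. Plk2 was the most abundant delayed primary gene, at 118.2 TPM in replicate 1 and 113.8 TPM in replicate 2, and its ratio was 0.12 (0.06 to 0.17), or -0.28 on the spike-in scale. Pim1, a survival kinase, had 2.80 TPM in replicate 1 and 3.13 TPM in replicate 2, with a ratio of -0.15 whose interval spans 0 (-0.53 to 0.22), and -0.55 on the spike-in scale.

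Among secreted products, Ccn1 stood apart. Ccn1, a matricellular protein of the rapid class, had 5.98 TPM in replicate 1 and 1.36 TPM in replicate 2, with a log2 ratio of 2.19 (1.75 to 2.68) on 226 and 48 counts, next to Arc in size. The other 3, all secondary, had lower ratios. Vgf, a neuropeptide precursor and the most abundant gene of the list, had 183.6 TPM in replicate 1 and 165.0 TPM in replicate 2, with a ratio of 0.16 (0.11 to 0.20), or -0.24 on the spike-in scale. Scg2, a granin of secretory vesicles, had 91.9 TPM in replicate 1 and 97.7 TPM in replicate 2, with a ratio of -0.02 (-0.08 to 0.04). Inhba, a subunit of activin A, was lower in replicate 1, at 7.10 TPM against 10.2 TPM in replicate 2, with a ratio of -0.32 (-0.48 to -0.17), and was the only gene past the bar with its interval below 0.

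Transcript models added detail within genes. Fosb was mostly Fosb-201, with a coding sequence of 338 codons, at 79.2% of Fosb TPM in replicate 1 and 69.7% in replicate 2. Fosb-206, whose 237 codons are the length known for the truncated ΔFosB protein, made up 15.7% in replicate 1 and 17.5% in replicate 2. Its share was 22.9% in replicate 1 and 28.3% in replicate 2 in the table quantified directly from the reads, so it differed more between the tables than between the mice. Arc was divided between Arc-201 (61.6% in replicate 1, 66.9% in replicate 2) and Arc-202, both with 396 codons. For 43 of the 46 genes both tables named the same leading transcript, but 13 genes have a single model and could not differ. Maff was a near tie in the read-based table, where Maff-201 held 100% in replicate 1 and 0% in replicate 2. The exceptions to the shared lead were Nr4a1, Vgf and Csrnp1. Nr4a1-201 led with 82.0% in replicate 1 and 58.8% in replicate 2 in the alignment-based table, but Nr4a1-202 led with 93.6% and 92.9% in that order in the read-based table, and both code for 601 codons. The leading transcripts of Vgf also share 1 coding length, 617 codons.

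Npas4 differed between the mice in its transcript makeup. The retained-intron model Npas4-202 took 11.8% of Npas4 TPM in replicate 1 and 31.2% in replicate 2, and 9.92% in replicate 1 and 23.0% in replicate 2 in the read-based table. In counts, the coding model Npas4-201 held 546.5 in replicate 1 and 235.0 in replicate 2, while Npas4-202 held 76.5 in replicate 1 and 128.3 in replicate 2. The gene-level ratio of 0.65 therefore joins a coding transcript that was higher in replicate 1 and a retained-intron transcript that was higher in replicate 2. Retained-intron shares were closer for Egr3 (31.9% in replicate 1, 29.3% in replicate 2), Dusp1 (13.4% in replicate 1, 12.2% in replicate 2) and Plk2 (11.5% in replicate 1, 12.1% in replicate 2). They also differed for Gadd45b (1.73% in replicate 1, 9.41% in replicate 2), Pim1 (10.2% in replicate 1, 0 in replicate 2), Sik1 (5.19% in replicate 1, 2.12% in replicate 2) and Nr4a1 (4.00% in replicate 1, 0.90% in replicate 2). For these 4 genes the retained-intron shares rest on few estimated counts. In replicate 1 and replicate 2 in that order, these were 2.19 and 7.57 for Gadd45b and 8.33 and 0 for Pim1. For Sik1 they were 31.3 and 7.51, and for Nr4a1 41.0 and 3.51. Reads from unspliced RNA also map to such models, and their part in these shares was not tested.

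Genes upstream of the list differed less between the mice. Of 27 upstream regulators, the kinases and transcription factors that relay the calcium signal, all were detected and 0 differed more than 2-fold. Among all genes 0.188% were more than 2-fold higher in replicate 1 and 0.0597% in replicate 2, so 0 of 27 does not set the regulators apart. The median log2 ratio of the regulators was 0.01 (-0.23 to 0.24). Their counting intervals lay above 0 for 10 and below 0 for 6, against 23.8% and 14.0% of all genes in these directions. The highest ratios were those of Rps6ka3 (0.24) and Camk4 (0.22), kinases of the CREB pathway, and of Camkk2 (0.20), which activates Camk4. The lowest were those of the CREB coactivators Crtc2 (-0.23) and Crtc3 (-0.22) and of the ERK kinase Mapk3 (-0.12). Among the abundant ones, Mef2c had a ratio of 0.09 and Map2k1 of 0.08, and Creb1 had 0.12 and Srf 0.17.

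Another 30 genes known to respond to activity but outside the list, 1 of which, Crem, also counts among the upstream regulators, lay between. Of the 28 past the count bar, 20 had intervals above 0 and 1 below, 5 exceeded a log2 ratio of 0.5, 0 exceeded 1, and the median was 0.27 (-0.22 to 0.97), which would lie below 0 on the spike-in scale. Over all genes the matching shares were 23.8%, 14.0%, 1.07% and 0.188%. Sgk1, a glucocorticoid-inducible kinase, led with 0.97 on 2146 counts in replicate 1 and 1072 in replicate 2, followed by Gpr3, a constitutively active receptor (0.90), and Cebpb, a bZIP factor (0.63). Id1 (-0.22), Klf6 (-0.19) and Dusp14 (-0.09) were lowest, and only Klf6 had an interval below 0. Homer1, a postsynaptic scaffold, had 218 TPM in replicate 1 and 163.9 TPM in replicate 2, with a ratio of 0.49, and Nrn1 and Klf9 had ratios of 0.35 and 0.33. The Homer1 model whose 186 codons are the length known for the inducible short form Homer1a, held 7068 counts in replicate 1 and 4334 in replicate 2, which is 29.3% of Homer1 TPM in replicate 1 and 25.6% in replicate 2. Bdnf, a neurotrophin whose promoters answer to calcium, had a ratio of 0.06 (-0.07 to 0.19).

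**Figure D5:**
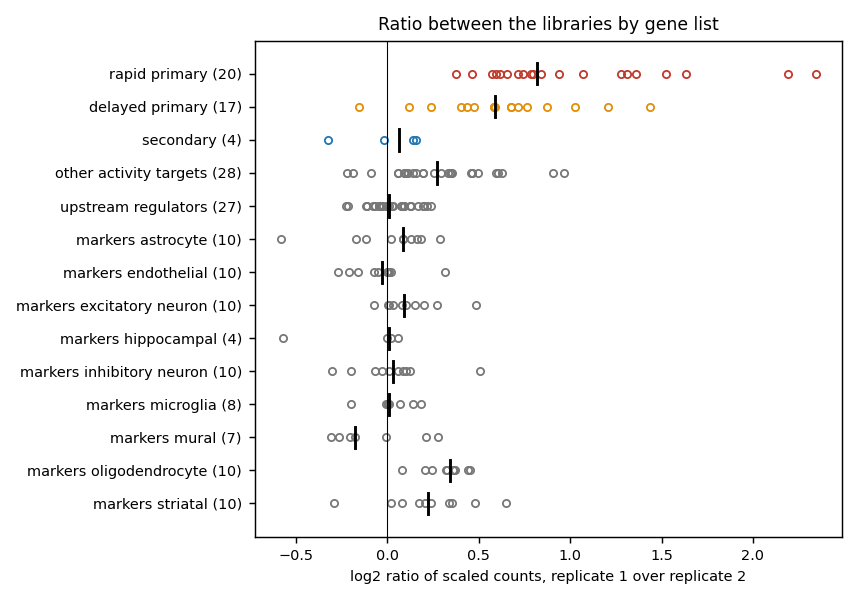
Log2 ratio of replicate 1 over replicate 2 for each gene past the count bar, by kinetic class, in the 2 other activity-related lists and in 9 lists of cell type or region markers, with the number of genes in brackets and a black bar at the median. Medians run from 0.82 for rapid primary genes to 0.01 for upstream regulators and -0.18 for mural markers.

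Cell type markers differed between the mice to a smaller extent. Markers of excitatory neurons were all detected and summed to 2923 TPM in replicate 1 and 2777 TPM in replicate 2, so the labelled tissue's main neurons were present, and their median log2 ratio was 0.09. Inhibitory neuron markers summed to 602 TPM in replicate 1 and 623 TPM in replicate 2, with a median of 0.03. Oligodendrocyte markers, all 10 detected, were higher in replicate 1, with sums of 1533 TPM in replicate 1 and 1274 TPM in replicate 2 and a median of 0.34 (0.08 to 0.45), which would lie below 0 on the spike-in scale, where ratios are 0.40 lower. Striatal markers, which the cortex also expresses in part, summed to 519 TPM in replicate 1 and 475 TPM in replicate 2, with a median of 0.22 (-0.29 to 0.65). The medians of the other lists were 0.08 for astrocytes, 0.01 for microglia, -0.03 for endothelial cells, -0.18 for mural cells and 0.01 for hippocampus. Of the 7 hippocampal markers, 5 were detected in both mice, while Dsp and Tdo2 were below 1 TPM in both. Ociad2 was the most abundant, at 49.95 TPM in replicate 1 and 52.53 TPM in replicate 2. The hippocampal median rests on the 4 markers past the count bar, of which Calb2 had the lowest ratio, -0.57 (-0.84 to -0.31). The part of tissue makeup in the ratios of the activity-induced genes was not tested. The labels give no time of day, housing or interval between handling and dissection, and such differences and the mouse cannot be told apart.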

How the data were processed

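Per the file headers, the authors deposited for each library gene and transcript tables from an alignment to the transcriptome, with expected counts (estimated reads, not normalized), TPM and each transcript's percent of the TPM of its gene, and a transcript table quantified directly from the reads, with estimated counts and TPM. The build is mm10 per the labels, with GENCODE M21 annotation. For the aligner, the quantification tools and the use of strand, the sources used here name nothing. Total expected counts were 29915463 in replicate 1 and 27988085 in replicate 2, of which 0.407% and 0.322% in that order lay on rows that name no GENCODE gene (spike-ins and tRNAs).

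The members and gene lists were chosen with earlier results of these data known. Members were matched by symbol. Expected counts were rounded to derive the TMM scaling (edgeR 4.0.16, R 4.3.3) and for the intervals. Log2 ratios of replicate 1 over replicate 2 used unrounded counts, a prior count of 0.5 and a mean count of at least 100. Intervals are exact binomial at 95%, and cover counting error only. The TPM scale includes small RNAs. All members could be named. Values are given in full for the 6 most abundant of each class, those over 1 in log2 ratio and those nearest 0, and from the regulator and target lists for the 3 highest, lowest and most abundant; Creb1, Srf and Bdnf were added after their values were seen, and 1 gene that this rule names is not reported here. The ratio step was tested on simulated data first. Alternatives were scaling by spike-in totals, by library totals or by DESeq2 1.42.0 size factors, prior counts and count minimums of other sizes, the read-based table, rescaled TPM, another pseudocount and the borderline assignments left out. Other steps ran in Python 3.11.15 (scipy 1.17.1, pandas 2.3.3, numpy 2.4.6, matplotlib 3.10.9).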

Additional observations from a re-analysis of the deposited data

How the results depend on the processing

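Spike-in totals changed the ratios most. They lowered the median of all genes by 0.40 on the log2 scale and left 5 members (Arc, Ccn1, Fos, Egr2 and Dusp5) more than 2-fold higher in replicate 1, against 8 (0.0682%) of 11728 genes, with 59 genes more than 2-fold higher in replicate 2. The median ratios became 0.28 for all members, 0.42 for rapid, 0.19 for delayed and -0.34 for secondary genes, and the sign differed for Jun (-0.02), Jund (-0.34), Nptx2 (-0.26), Nr4a2 (-0.16), Plk2 (-0.28) and Vgf (-0.24). The strictest count minimum left 6 members over 2-fold, since 27 members pass it. With no count minimum 12 members were over 2-fold, with 2.60% of all genes, and with library totals 10, with 0.179% of all genes. Without the borderline assignments the medians were 1.07 for rapid and 0.14 for secondary genes. The order of the class medians held in 9 of 9 settings, but the scalings move all genes almost alike and could hardly alter it. Median levels on log2(TPM + 1), reported as 3.44, 3.29, 3.20 and 6.07 for all, rapid, delayed and secondary genes, were 4.09, 3.86, 3.98 and 6.56 in the read-based table and 4.51, 4.35, 4.25 and 7.21 after rescaling TPM over nuclear protein-coding genes. The secondary level was 6.05 with a pseudocount of 0.1 and 6.58 without Inhba. From 1 library alone, the level of all members was 3.27 without replicate 1 and 3.69 without replicate 2, and no ratio can be formed. The cause of these shifts was not tested. No paired analysis was possible because there is 1 group.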

Other observations

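Most of the 46 genes were compact. Span was taken over all annotated models of a gene, so a little-used long model can widen it. The median span was 5.88 kb, against 26.0 kb for protein-coding genes detected in both mice, and 31 of 46 (67.4%) spanned under 10 kb, against 23.3%. The leading transcript had a median of 4 exons, against 8, while its median length, 2742 nucleotides, was close to the 2832 of all detected genes. Rapid primary genes had the shortest spans, with a median of 4.09 kb and 3 exons, beside 9.24 kb and 5 exons for delayed primary genes and 9.27 kb and 3.5 exons for the 4 secondary genes. Exceptions were Dusp1 (56.5 kb), Atf3 (47.7 kb), Nr4a3 (41.3 kb) and Tiparp (27.1 kb) in span, and Plk3 (15 exons), Plk2 (14) and Sik1 (14) in exons. For Dusp1, the model Dusp1-202 held 86.0% of TPM in replicate 1 and 86.7% in replicate 2. The spans of single models were not computed, so these 4 genes may be more compact in the models that were expressed. Jun, Junb, Jund, Ier2, Ier5, Zfp36 and Amigo3 each had a single exon in the leading model.

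AU-rich motifs in the 3' untranslated region, known to mark short-lived RNAs, were common but not general. The pentamer ATTTA stood in 37 of 46 members (80.4%) and in 67.0% of the 11924 detected genes with such a region, and the nonamer TTATTTATT in 12 of 46 (26.1%) and in 7.34%. Inhba held 21 pentamers and Ptgs2 held 14, while Arc, Ier2, Egr4 and Trib1 were among those that held 0. A match was not tested as a site.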
